A study of Drosophila melanogaster with 4 samples.

Results

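H2A.V regions of 1300 to 2000 bp are the stretches of intermediate width in a list of chromatin called as enriched for the histone variant H2A.V in fly embryos. All entries with an end minus start of at least 1300 and at most 2000 bp were taken, on every sequence name, which gave 923 of the 3229 listed regions. The chromatin came from unstaged embryos of Drosophila melanogaster with a wild-type (wt) genotype, without any stated treatment. It was fixed with formaldehyde, sheared by sonication and immunoprecipitated for sequencing (ChIP-seq). The study made 4 libraries from such embryos, namely H2A.V, CTCF and H3 ChIP libraries and an input, with 1 library of each and no replicate. The H2A.V and CTCF peak lists were used, while input and H3 are not analysed here. The title of the H2A.V library names the protein differently (H2A.C), so its antibody label was followed. Unstaged embryos mix ages and tissues, so a region may be marked in a part of the cells.

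H2A.V is the H2A variant of the fly and is known to carry out the roles that H2A.Z and H2A.X divide between them in mammals. It is best known from the nucleosomes next to the starts of active genes. CTCF is a zinc-finger protein that binds DNA directly and is known as an insulator factor that separates regulatory domains. In human cells its sites are known to lie in a nucleosome-free gap between well-positioned nucleosomes, many of which carry H2A.Z. The title of the study concerns ACF1, a subunit of remodelling complexes known for spacing nucleosomes evenly. How regions that hold CTCF differ from those that do not is therefore described here in width, in place along the genome and in neighbours.

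Sequencing gave 12260001 tags for H2A.V, and 10.58% of them fell in the listed regions, an average of 402 for each. For CTCF there were 11657333 tags, and its 2459 listed peaks are each 201 bp wide. Tag counts for single regions were not used here, since the lists give positions only. Every interval below is a 95% interval that treats regions or midpoints as independent and covers counting error only, not a spread between embryo collections. With 1 library per antibody no test between samples was possible, and no p-value is given. The regions were chosen by their H2A.V width, so widths describe them and support nothing.

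The 923 regions had a median width of 1622 bp, with quartiles of 1442 and 1793.5 bp, and together covered 1.50 Mb. Their widths took 496 distinct values, and the commonest, 1701 bp, occurred 6 times. The narrowest width was 1301 bp, and the first listed region of that width outside 2R lay on 3L from 16340454 to 16341754 (dm3). The widest outside 2R, at 2000 bp, lay on 3R from 12260510 to 12262509. Neither held a CTCF midpoint, but a later listed region of 1301 bp on 3R did.

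CTCF was listed inside 3 in 10 of these regions. A CTCF peak midpoint lay inside 275 of the 923 (29.8%, 95% Wilson interval 26.9 to 32.8%), and 648 had none. Over all 3229 H2A.V regions, 25.0% held one. The 2306 regions of other widths held one in 532 cases (23.1%, 21.4 to 24.8%), but a wide region has more room for a midpoint than a narrow one. Per length, the 279 midpoints in the regions of 1300 to 2000 bp amounted to 186 per Mb of covered sequence (95% Poisson interval 165 to 209). That density was 1.60 times that of the regions over 2000 bp (1.35 to 1.90), which had 116 per Mb. It was 0.760 times that of the regions of 550 to 1299 bp (0.639 to 0.905), which had 245 per Mb. The 408 regions of the narrowest width, 501 bp, had 108 per Mb, and the ratio to these was 1.73 (1.12 to 2.80). CTCF density thus stood between those of the next narrower and the wider regions.

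Regions with CTCF were slightly narrower than those without, and the difference came from the upper end of the width range. The median width was 1577 bp with CTCF (order-statistic interval 1549 to 1630 bp) and 1641.5 bp without (1608 to 1670 bp), a difference of -64.5 bp (-114 to -15.4 bp). Without 3L it was -59 bp (-121 to 2.74 bp) and without 3R -57 bp (-117 to 2.80 bp), so the interval then included 0. The lower quartiles, at 1441.5 bp with and 1442 bp without CTCF, nearly coincided, while the upper quartiles were 1744 and 1820.25 bp. CTCF was present in 28.7% of the regions of 1300 to 1399 bp (22.4 to 36.0%), in 33.6% of those of 1400 to 1799 bp (29.7 to 37.7%) and in 21.7% of those of 1800 to 2000 bp (16.8 to 27.5%). At the limits of the range, CTCF was present in 28.7% of the 167 regions of 1300 to 1399 bp, just inside, and in 29.1% of the 110 of 1200 to 1299 bp, just outside. On the wide side it was present in 19.3% of the 109 regions of 1900 to 2000 bp (13.0 to 27.7%) and in 32.9% of the 85 regions of 2001 to 2100 bp (23.9 to 43.5%). The share therefore did not fall steadily with width beyond the upper limit.

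**Figure D1:**
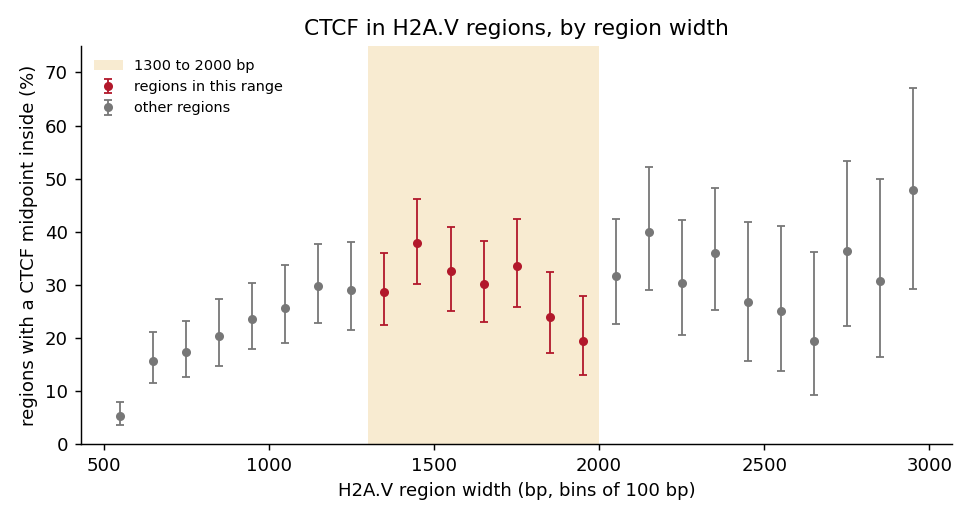
Share of H2A.V regions with a CTCF midpoint inside (vertical axis, percent) by region width in bins of 100 bp (horizontal axis, bp); points are single-library shares, bars are 95% Wilson intervals, and the shaded band marks 1300 to 2000 bp. The share is 37.9% at 1400 to 1499 bp and 19.4% at 1900 to 1999 bp, and it is 5.39% at the narrowest width.

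Within the regions that held it, CTCF lay close to the middle. The 279 midpoints had a median distance of 173 bp from the centre of their region (153 to 200 bp), where even placement in the same regions gives about 394 bp. Within 100 bp of the centre lay 86 midpoints (30.8%, 25.7 to 36.5%), against 12.6% under even placement. Within 250 bp lay 190 (68.1%, 62.4 to 73.3%), against 31.6%. The excess faded outward, with 2.44 times the even count at 0 to 100 bp from the centre (1.95 to 3.01), 1.96 times at 100 to 200 bp and 1.53 times at 200 to 300 bp. Beyond that the counts were below even placement, at 0.624 times for 300 to 400 bp (0.391 to 0.944) and 0.340 times for 400 to 500 bp (0.176 to 0.594). The distances from 500 bp outward held 36 midpoints against 103 under even placement. In bins of 50 bp the count went down to 4 at 400 to 450 bp and stood at 8, 9, 7 and 8 in the next 4 bins, which are too few to show a separate maximum.

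**Figure D2:**
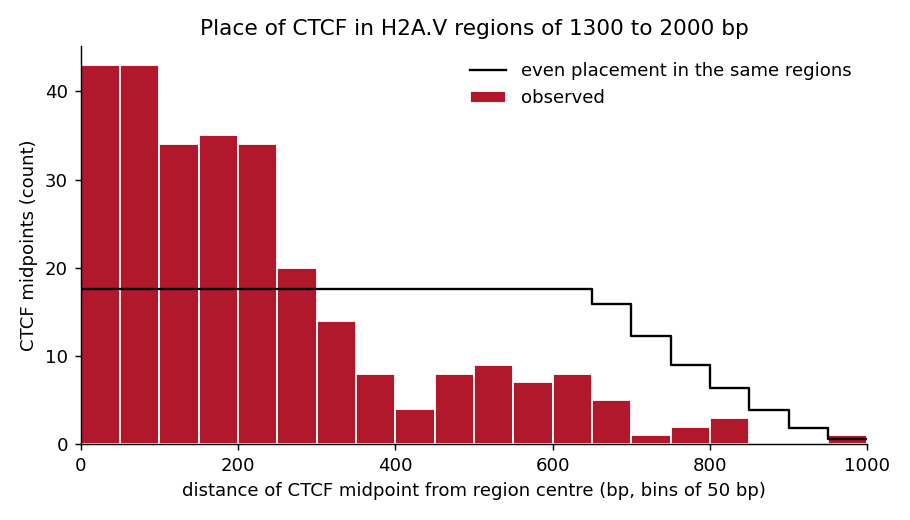
Number of CTCF midpoints (vertical axis, count) by distance from the centre of their H2A.V region (horizontal axis, bp, bins of 50 bp) for the 279 midpoints in regions of 1300 to 2000 bp; the line is the count that even placement in the same regions would give. The bars stand above the line out to 300 bp and below it from there to 950 bp.

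CTCF lay centrally across the width range. Its median distances from the centre and from the nearer edge were both greater at 1900 to 2000 bp than at 1300 to 1399 bp. The intervals for the distance from the centre overlap. In regions of 1300 to 1399 bp the median midpoint lay 120.75 bp from the centre (83 to 289.5 bp) and 560 bp from the nearer edge. At 1600 to 1699 bp these medians were 195.25 bp (122 to 255.5 bp) and 633 bp. At 1900 to 2000 bp they were 212.5 bp (123 to 305.5 bp, 21 midpoints) and 766.5 bp. The share within 250 bp of the centre ran from 57.1% (42.2 to 70.9%) at 1700 to 1799 bp to 79.5% (65.5 to 88.8%) at 1500 to 1599 bp, above the even share in each of the 7 width bins. Across the 279 midpoints, width correlated at Pearson r = 0.112 (Spearman rho = 0.123) with the distance from the centre and at r = 0.349 (rho = 0.419) with the distance from the nearer edge. These correlations are descriptive, since both distances are bounded by the width itself. H2A.V windows were stitched into regions at peak calling, so a dip of H2A.V at the CTCF site would not be visible in the list.

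**Figure D3:**
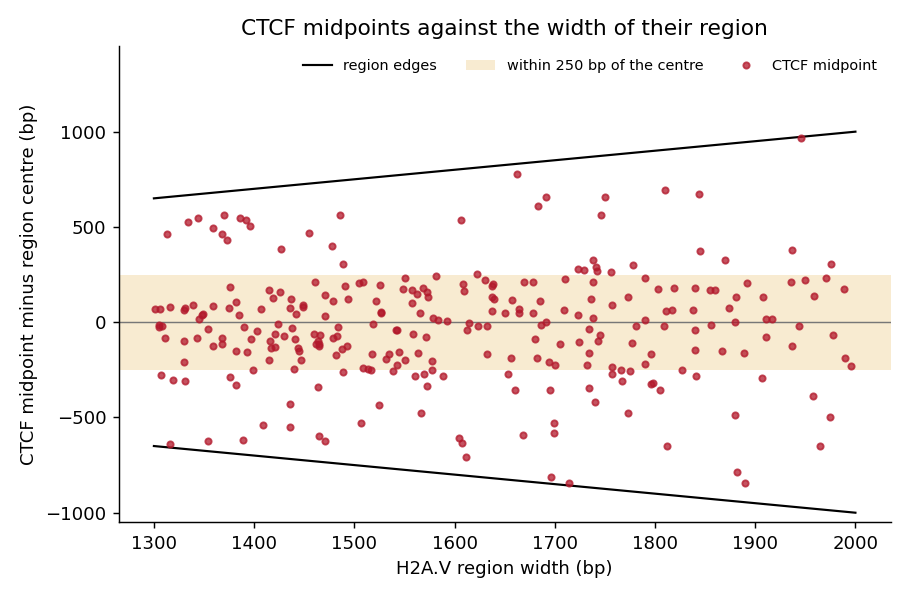
Position of each of the 279 CTCF midpoints relative to its region centre (vertical axis, bp, positive towards higher coordinates) against region width (horizontal axis, bp); black lines are the region edges and the band marks 250 bp either side of the centre. The band holds 190 of the 279 points, and points lie in it at every width.

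Neither side of the centre held more CTCF beyond counting error. The midpoint lay on the low-coordinate side of the centre in 148 cases and on the high-coordinate side in 131 (53.0% low, 47.2 to 58.8%), and the median signed offset was -21.5 bp (-63.5 to 19.5 bp) with an SD of 299 bp. It lay on the side that faced the nearest other H2A.V region in 126 of 279 cases (45.2%, 39.4 to 51.0%). Outside 2R, the region whose single CTCF midpoint was nearest to its centre lay on 2L from 2364468 to 2366081, with the midpoint 2.5 bp from the centre of 1614 bp. The one with the most distant single midpoint lay on 3L from 12999739 to 13001628, with CTCF 843.5 bp from the centre and 101.5 bp from the edge. A pair of CTCF midpoints was found in 4 regions, with 451, 654, 488 and 610 bp between the midpoints of a pair. The 279 midpoints thus lay in 275 regions. All H2A.V regions held 826 midpoints in 807 regions, and those over 2000 bp held 273 in 260, so pairs were not particular to this width range. CTCF peaks had to lie at least 400 bp apart at calling, so closer pairs could not be listed. Of these 4 regions, 2 lay outside 2R, both on 3R. In the one from 7574836 to 7576344 both midpoints lay off the centre, the closer at 211 bp. In the one from 9508122 to 9509812 a midpoint lay 1 bp from the centre.

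The share of regions with CTCF near the centre was higher over the whole range of 1300 to 2000 bp than over each of the other width classes, without a step at its limits. A zone of 250 bp either side of the centre has the same size in every region, so it does not favour wide ones. It held CTCF in 189 of the 923 regions (20.5%, 18.0 to 23.2%), against 12.4% of all H2A.V regions. The regions of 550 to 1299 bp reached 11.9% (10.2 to 14.0%), those over 2000 bp 7.30% (5.67 to 9.36%) and those of 501 bp 5.39% (3.59 to 8.03%). The differences were 8.54 percentage points to the first of these classes (Newcombe interval 5.34 to 11.8), 13.2 to the second (9.95 to 16.4) and 15.1 to the third (11.5 to 18.4). Next to the limits the shares were close, at 18.0% for 1300 to 1399 bp (12.9 to 24.5%) and 15.5% for 1200 to 1299 bp (9.88 to 23.4%), and at 12.8% for 1900 to 2000 bp (7.81 to 20.4%) and 12.9% for 2001 to 2100 bp (7.38 to 21.7%). The share was highest in the middle of the range, at 23.8% for 1400 to 1799 bp (20.3 to 27.6%). The width limits were set after the place of CTCF in these lists had been seen, so the differences describe the lists and were not tested. CTCF just beyond an edge was rare by contrast. A midpoint up to 250 bp outside an edge was found for 28 of the 923 regions (3.03%, 2.11 to 4.35%), against 8.14% of all H2A.V regions, 11.7% of those of 550 to 1299 bp and 18.9% of those of 501 bp. Regions over 2000 bp had 3.39%, a difference of -0.36 percentage points (-2.15 to 1.34).

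The CTCF peaks inside these regions came more from the late part of the CTCF list than from its early part. Of the first 1230 CTCF peaks in deposited order, 90 lay inside a region of 1300 to 2000 bp (7.32%, 5.99 to 8.91%), and of the other 1229, 189 did (15.4%, 13.5 to 17.5%). Per covered length, the ratio to H2A.V regions of other widths was 1.19 (0.912 to 1.54) with the first part and 1.23 (1.03 to 1.47) with the second. These ratios were close, so the excess of late peaks was not particular to this width range. What the order of the lines stands for is not recorded. Their place was close in both parts, with median distances from the centre of 172.25 bp (134.5 to 225.5 bp) for the first and 173 bp (149 to 201.5 bp) for the second.

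The regions of 1300 to 2000 bp were not spread over the arms exactly as other H2A.V regions were. They made up 33.4% of the 755 H2A.V regions on 3R (30.1 to 36.8%) and 24.6% of the 590 on the X (21.3 to 28.2%). The shares were 30.1% on 3L, 27.8% on 2L, 26.6% on 2R and 20% on chromosome 4, where 10 of 50 regions fell in the range. Set against the regions of other widths, 3R held 5.49 percentage points more of the 923 (2.22 to 8.88) and the X 3.59 points fewer (difference -3.59, -6.35 to -0.65). The intervals for 2L, 2R, 3L, chromosome 4 and the remaining names together include 0, and none of the intervals is adjusted for the number of arms. Heterochromatic sequence names held 8 of the regions.

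No difference in arm between regions with and without CTCF was detectable at these numbers. The share with CTCF was 33.7% on 3R (28.2 to 39.8%), 32.7% on 2R (26.1 to 40.2%), 28.3% on the X (21.6 to 36.1%), 26.8% on 3L (20.9 to 33.6%) and 25.5% on 2L (19.3 to 32.8%), and these intervals overlap one another. On chromosome 4, 3 of 10 held CTCF. The X held 41 of the 275 regions with CTCF (14.9%) and 104 of the 648 without (16.0%), a difference of -1.14 percentage points (-5.94 to 4.24). The central place of CTCF was seen on each large arm. Median distances from the centre were 153 bp on 3R, 156 bp on 2R, 163.75 bp on 2L, 185.5 bp on 3L and 230.5 bp on the X (150.5 to 339.5 bp), with an X interval that overlaps the others.

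Regions with CTCF stood farther from other H2A.V regions than those without. The gap from edge to edge to the nearest H2A.V region had a median of 4304 bp with CTCF (3294 to 5236 bp) and of 3092 bp without (2714 to 3486 bp). The ratio of medians was 1.39 (Bonett-Price interval 1.08 to 1.79). Another H2A.V region lay within 5 kb of 147 of the 275 regions with CTCF (53.5%, 47.6 to 59.3%) and of 424 of the 648 without (65.4%, 61.7 to 69.0%), where 59.5% of all H2A.V regions had one. The difference was -12.0 percentage points (-18.9 to -5.07). Regions with CTCF were flanked within 5 kb on both sides in 8.36% of cases (5.64 to 12.2%), and those without in 17.9% (15.1 to 21.0%), where 14.1% of all H2A.V regions were, a share between the 2 groups. At the extremes of distance the groups were close. A neighbour within 1 kb was found for 10.5% with CTCF (7.44 to 14.7%) and 10.8% without (8.64 to 13.4%), where 14.1% of all H2A.V regions had one. Within 50 kb the shares were 95.6% with and 96.5% without CTCF, against 95.4% of all H2A.V regions.

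**Figure D4:**
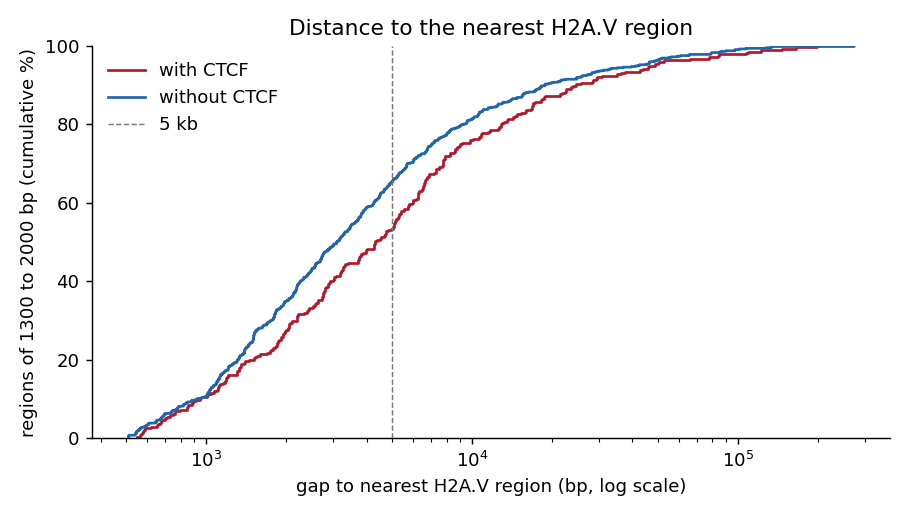
Cumulative share (vertical axis, percent) of H2A.V regions of 1300 to 2000 bp by the gap to the nearest H2A.V region (horizontal axis, bp, log scale), for the 275 regions with a CTCF midpoint and the 648 without. The curve with CTCF runs to the right of the other between about 1 and 50 kb and stands at 53.5% at 5 kb, against 65.4% without CTCF.

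The wider spacing was seen on each large arm and in each part of the width range. The median gaps with and without CTCF were 3644 and 2710 bp on 2L, 6490 and 3604 bp on 2R, 5299 and 3739.5 bp on 3L, 3183 and 2431 bp on 3R, and 3793 and 2710.5 bp on the X. By width, the ratio of medians was 1.55 (1.07 to 2.25) at 1300 to 1499 bp, 1.19 (0.848 to 1.67) at 1500 to 1699 bp and 1.51 (1.01 to 2.27) at 1700 to 2000 bp, so the middle part alone has an interval that includes 1. No difference in spacing was detectable between central and other CTCF. Median gaps were 4254 bp (3250 to 5511 bp) for the 189 regions with CTCF within 250 bp of the centre and 4614 bp (2724 to 5744 bp) for the 86 with CTCF elsewhere, and the ratio was 0.922 (0.596 to 1.43). In the H2A.V list, regions with CTCF stood later, with a median line of 1360 of 3229 against 1147.5 without, and the same order was seen in all 3 parts of the width range. The part of this order in the spacing was not tested.

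The same gaps can be read as chains of H2A.V regions, in which each gap is at most 5 kb. A chain of 4 or more regions included 37 of the regions with CTCF (13.5%, 9.92 to 18.0%) and 137 of those without (21.1%, 18.2 to 24.5%), where 16.4% of all H2A.V regions belonged to one. The interval with CTCF includes that share over all regions, and the interval without CTCF lies above it. The longest chain that included a region with CTCF counted 8 regions, and the longest that included one without counted 9. Outside 2R, the closest pair of regions of 1300 to 2000 bp lay on 3R, from 14048302 to 14050190 and from 14050731 to 14052595, 540 bp apart and without CTCF in either. The most isolated one lay on 2RHet from 471217 to 473102, with 273190 bp to the nearest H2A.V region.

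The neighbours themselves did not differ detectably between the groups. The nearest H2A.V region had a median width of 1382 bp (1243 to 1525 bp) beside regions with CTCF and of 1401.5 bp (1332 to 1494 bp) beside those without, a difference of -19.5 bp (-176 to 137 bp). It was over 2000 bp wide in 26.9% with and 25.8% without CTCF. It held CTCF itself in 59 of 275 cases (21.5%, 17.0 to 26.7%) with CTCF and in 145 of 648 (22.4%, 19.3 to 25.7%) without, where 22.6% of all H2A.V regions had such a neighbour. The difference was -0.92 percentage points (-6.49 to 5.13).

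CTCF peaks outside the regions were also sparser in the first 3 kb beyond the edges of those that already held one. The nearest outside CTCF midpoint lay at a median of 14720 bp from the region centre with CTCF (11725 to 17293.5 bp) and of 10450 bp without (9368 to 11628.5 bp), a ratio of 1.41 (1.14 to 1.75). With the first or the second part of the CTCF list alone, which leaves CTCF of the other part uncounted, the ratio was 0.979 (0.669 to 1.43) or 1.01 (0.731 to 1.39). A midpoint up to 250 bp outside an edge does not count as inside. Such a midpoint was found for 2 of the 275 regions with CTCF (0.727%) and 26 of the 648 without (4.01%). The share over all H2A.V regions was 8.14%. In the first 2 kb beyond the edges there were 9 CTCF midpoints with CTCF inside, or 8.18 per Mb (3.74 to 15.5), and 85 without, or 32.8 per Mb (26.2 to 40.5). From 1 to 5 kb, a stretch that overlaps the first, the densities were 22.3 per Mb with and 34.3 per Mb without CTCF inside, a ratio of 0.649 (0.463 to 0.894). This stretch was not even. The densities with and without CTCF inside were 5.45 and 26.2 per Mb at 1 to 2 kb, and 18.2 and 44.8 per Mb at 2 to 3 kb. At 3 to 4 kb the order was the other way, at 43.6 (28.0 to 64.9) and 32.4 per Mb (23.4 to 43.8), with intervals that overlap. At 4 to 5 kb the densities were 21.8 and 34.0 per Mb. From 2 to 10 kb the densities were 28.6 and 32.9 per Mb, a ratio of 0.871 (0.704 to 1.07), and from 10 to 20 kb they were 24.5 and 27.9 per Mb, a ratio of 0.881 (0.718 to 1.08). CTCF calling required a 4-fold excess over the surrounding 10000 bp and 400 bp between peaks, which acts on the same distances. The part of these rules in the sparse flanks was not tested.

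H2A.V coverage of the flanks was also lower beside regions with CTCF, and no interval was computed for it. Between 1 and 5 kb from the edges, other H2A.V regions covered 10.7% of the sequence beside regions with CTCF and 14.8% beside those without. Between 10 and 20 kb the coverage was 8.92% with and 9.44% without CTCF. The first kb was nearly empty in both groups, at 1.50% with and 1.70% without, and the smallest gap between any 2 listed H2A.V regions was 504 bp, since nearby windows were stitched.

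**Figure D5:**
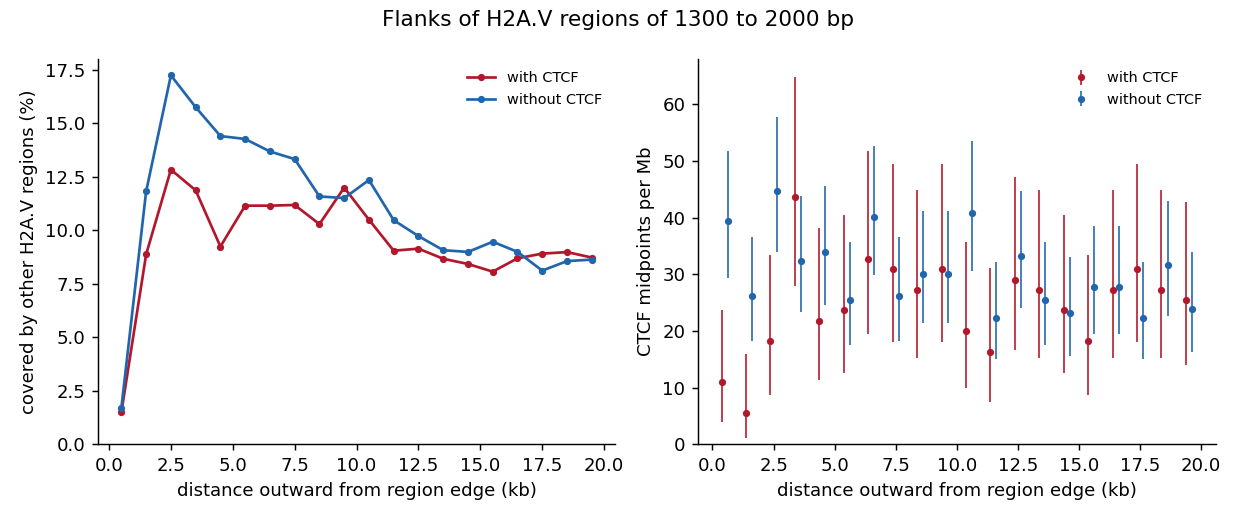
Left, share of sequence covered by other H2A.V regions (vertical axis, percent), and right, CTCF midpoints per Mb with 95% Poisson intervals, both by distance outward from the edges of H2A.V regions of 1300 to 2000 bp (horizontal axis, kb, bins of 1 kb, both sides pooled), with and without CTCF inside. At 2 to 3 kb, H2A.V coverage is 12.8% with CTCF and 17.2% without, and in the first kb CTCF stands at 10.9 per Mb with CTCF inside and 39.4 per Mb without. At 3 to 4 kb CTCF stands at 43.6 per Mb with CTCF inside and 32.4 per Mb without.

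As single examples, the first regions of this width in deposited order outside 2R were taken for each group. With CTCF, the first lay on 3R from 3745123 to 3746933, with its midpoint 59 bp from the centre and 5108 bp to the nearest H2A.V region. The next lay on 3R from 23089313 to 23091287, with CTCF 498 bp from the centre and a gap of 5236 bp. Without CTCF, the first lay on 2L from 6956326 to 6958078, with a gap of 1703 bp and the nearest CTCF midpoint at 10450 bp. The next lay on 3R from 8537116 to 8538860, with a gap of 12969 bp and the nearest CTCF midpoint at 11742 bp.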

How the data were processed

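Per the submitters' processing notes, alignment used Bowtie 1.1.1 and the dm3 build, and HOMER (version not given in the sources) called the peaks. The deposited lists hold start and end in bp. Per the file headers, H2A.V regions were called in histone style from 500 bp windows stitched under a minimum distance of 1000 bp, with a threshold of 67 tags and a 4-fold excess over the input. CTCF peaks were called in factor style with at least 37 tags, a 4-fold excess over the input and over the local 10000 bp. The same local rule is listed for H2A.V, with 0 putative peaks filtered by it. The score column deposited by the authors is 1 in every line and was not used. Deposited positions count the start from 0 and are printed counting from 1.

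The members, lists and comparisons were chosen with earlier results of these data known. A region held CTCF when a peak midpoint lay inside it. The 550 to 1299 bp class begins above the 501 bp regions. Intervals are Wilson, Newcombe, exact Poisson, exact binomial for ratios of densities, order-statistic for medians and Bonett-Price for contrasts of medians. The counting and the intervals were tested on simulated data. Alternatives covered width limits, arms, each of 2 equal parts of the CTCF list, the overlap rule and distance limits. Printed positions followed a written rule: outside 2R, the narrowest and widest region, the first 2 with and without CTCF, those with a pair of midpoints, the most and least central midpoint, the closest pair and the most isolated region. Ties went to the earlier line. A RefSeq gene table of release 6 has another build than dm3 and was not used, so no gene or sequence is given. Python 3.11.15, NumPy 2.4.6, SciPy 1.17.1, pandas 2.3.3 and matplotlib 3.10.9 were used.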

Additional observations from a re-analysis of the deposited data

How the results depend on the processing

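For the 10 results, 111 values were recomputed under other settings, and 105 lay within the main value's interval. Stricter and wider width limits, each large arm left out, the 5 large arms alone and overlap by at least 1 bp kept every value within that interval. The interval of the width difference came to include 0 with width limits of 1200 to 2100 bp (-55 bp, -112 to 1.90 bp), without 3L, without 3R and in either part of the CTCF list. CTCF density over that of all other H2A.V regions was 1.22 (1.05 to 1.41), and its interval came to include 1 without 3R, without the X, in the first part of the CTCF list and with overlap by 1 bp (1.09, 0.946 to 1.25). The intervals for the gap and for a neighbour within 5 kb came to include no difference in the first part of that list, and that for a neighbour also at 10 kb. With the CTCF list divided in its middle, the first and the second part gave a share of regions with CTCF of 9.75% and 20.2%, lower by construction because each part has fewer peaks. Within 100 bp of the centre, in place of 250 bp, lay 30.8% of midpoints. With the first part the X share with CTCF minus without was -7.56 percentage points (-12.6 to 0.48). The ratio of distances to the nearest outside CTCF midpoint fell to 0.979 (0.669 to 1.43) with the first part and to 1.01 (0.731 to 1.39) with the second. Both intervals include 1. In each part some regions counted as without CTCF hold a peak of the other. No paired analysis was possible because the design holds 1 library for each antibody. A stricter threshold could not be set, since the lists give no tag counts. A region without CTCF is one where no peak of at least 37 tags was listed. Of 18141 putative CTCF peaks, 15117 were filtered by the input and 565 by the local signal. A region without a listed peak may therefore still have held a putative one.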
